A study of Mus musculus with 6 samples.

Results

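A transcript cluster is the unit that this microarray reports: a set of probes that the array's design joined into 1 value. Most annotated clusters carry 1 gene symbol, but some carry several, because genes lie within or beside each other, because their sequences are too alike for the probes to tell apart, or because 1 gene is listed under more than 1 name. All rows of the value table whose platform annotation gave 2 or more different symbols were taken, which were 2168 of 65956 clusters. A further 30646 clusters had 1 symbol and 33142 had none. Each shared cluster is described here as a whole, under all its symbols joined by a slash, and its value is not assigned to any one of them. The RNA was from regulatory T cells (Tregs), sorted as CD4+CD25+Nrp1+ cells out of the spleens of untreated male B6 mice aged 10 to 12 weeks. The 3 CREB-KO arrays were from Foxp3creCREBfl/fl mice, in which Cre is expressed from the Foxp3 gene and removes floxed CREB in Foxp3-expressing cells. The 3 CREB-WT arrays were from animals labelled WT, which the study's methods describe as CREBfl/fl mice without Cre, so that loss of CREB and the presence of the Foxp3-IRES-Cre allele cannot be told apart. Each array had its own animal.

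CREB is a transcription factor that, when phosphorylated after cAMP or antigen receptor signals, activates genes with a cAMP response element in their promoter. It binds the full palindrome TGACGTCA or the half-site TGACG, and it is also known as one of the factors on the promoters of MHC genes. Foxp3 is the transcription factor that defines Tregs. MicroRNAs, the most frequent small RNAs among the shared clusters, are cut from hairpins that often lie in introns of other genes, and they recognise target messages mainly through the seed, bases 2 to 8 of the mature strand.

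The first sequences are 2 promoters of MHC class I genes of the Q region, because clusters with these genes were lower in CREB-KO. The windows run from 250 bases before to 50 bases after the RefSeq start (GRCm38.p6), H2-Q6 at chr17:35424600-35424899 and H2-Q7 at chr17:35438905-35439204, both on the plus strand. Over the 260 bases that aligned, 254 were identical and 6 differed, and H2-Q6 had 1 base more. Capitals mark these bases.
H2-Q6: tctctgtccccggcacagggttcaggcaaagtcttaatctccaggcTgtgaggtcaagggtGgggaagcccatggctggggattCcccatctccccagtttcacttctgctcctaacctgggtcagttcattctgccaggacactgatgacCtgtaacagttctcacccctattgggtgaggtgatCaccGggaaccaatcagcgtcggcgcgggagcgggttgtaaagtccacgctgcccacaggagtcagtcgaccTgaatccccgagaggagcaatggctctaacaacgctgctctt
H2-Q7: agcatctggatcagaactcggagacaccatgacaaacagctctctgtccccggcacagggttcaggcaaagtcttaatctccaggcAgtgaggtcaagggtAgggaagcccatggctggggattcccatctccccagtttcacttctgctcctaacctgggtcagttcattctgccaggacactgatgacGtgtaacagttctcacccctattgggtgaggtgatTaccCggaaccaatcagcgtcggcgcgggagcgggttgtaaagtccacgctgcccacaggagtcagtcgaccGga
The half-site TGACG or its reverse CGTCA was in 1 place in the H2-Q7 window and in none of the H2-Q6 window. With positions counted from 1 at the 5′ end of the H2-Q7 window, the change G191C is within this half-site. H2-Q6 and H2-Q7 do not share a cluster: H2-Q6 is listed with H2-Q8, and H2-Q7 with H2-Q5 or H2-Q9. Arxes1 and Arxes2, X-chromosomal genes that do share 1 cluster, were identical over all 300 bases of their windows (chrX:136033117-136033416 and chrX:135993570-135993869, plus strand), so 1 is shown for both.
Arxes1: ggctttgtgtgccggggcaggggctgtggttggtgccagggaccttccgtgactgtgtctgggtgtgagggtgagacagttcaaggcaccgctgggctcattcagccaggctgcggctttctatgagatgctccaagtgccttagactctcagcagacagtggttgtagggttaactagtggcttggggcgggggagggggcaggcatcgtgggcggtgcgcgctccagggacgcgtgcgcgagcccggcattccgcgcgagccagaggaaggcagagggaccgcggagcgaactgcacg
TGACGTCA was in 588 of 32851 RefSeq promoter windows of this length (1.79%) and the half-site on either strand in 20.8%. Among the 24 windows of genes on the shared clusters that passed the study's thresholds, 0 held the palindrome and 5 (20.8%) a half-site, those of H2-Q7, Ercc2, Atp2b4, Dmac1 and Arl4aos. Foxp3, Nav2 and Rnf43 had 2 windows each. Cd74, Rnf19a, Spi1, H2-Q5 and H2-Q8, also on such clusters, had no window among the 24, so these counts say nothing about them. A match of these letters is a description of the window and not a binding site.

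Of the clusters that passed the thresholds 15 listed a microRNA, and 20 mature RefSeq sequences of 13 of these microRNAs were used here. No 2 of the 20 had the same seed. Among these, the sequences of the 6 clusters with the largest differences, and that of the Nrp1 cluster, are printed with the seed in capitals, because these hairpins give the clusters their names.
mmu-miR-6921-5p: uGAGGGGCaugagguaggaagc
mmu-miR-6921-3p: uGACUACUccuugccucucag
mmu-miR-7039-5p: aGAGGGAUggagagcaucgcgu
mmu-miR-7039-3p: cCUGUUCUgcccucccuuccag
mmu-miR-343: uCUCCCUUcaugugcccaga
mmu-miR-6908-5p: uUGCCUGUcagggagagcccca
mmu-miR-6908-3p: aCACUCUCccuugugcuggcag
mmu-miR-3069-5p: uUGGCAGUcaagauauuguuuagc
mmu-miR-3069-3p: uUGGACACuaaguacugccaca
mmu-miR-7223-5p: uAGCUUUGcugaggugucgg
mmu-miR-7223-3p: gUCUCGAAcaagcuagg
mmu-miR-1903: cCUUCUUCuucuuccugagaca
The positions of the probes are not given in the sources used here, and the value of such a cluster is not read as the amount of a mature strand.

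The 2168 clusters carried 4128 different symbols. Of them 1601 had 2 symbols, 291 had 3, 276 had 4 or more, and the longest list had 15. In 646 clusters all symbols were names of 1 RefSeq gene, 316 of them a microRNA (Mir6921 and mmu-mir-6921) and 330 another gene under an old and a new name (Spi1 and Sfpi1). The other 1522 held different genes or could not be resolved: 868 had genes on 1 chromosome with further genes between them, 430 had neighbours, 211 had genes on more than 1 chromosome, and 13 had fewer than 2 symbols known to RefSeq. By their symbols, 388 clusters joined 1 named gene with predicted models, pseudogenes or antisense RNAs, 381 held predicted models only, 238 a small RNA with another gene, 202 named genes of 1 family, 119 named genes of unlike names, 68 chemosensory receptors, 51 histones, 49 antigen receptor segments and 26 small RNAs only. Promoters were compared for the first pair of genes of a cluster that had windows, and further genes of the cluster were not counted. Where a gene had several windows the most alike were taken. Gaps, also those at the ends, counted as differences here, unlike in the H2-Q6 and H2-Q7 comparison above. The promoters of this pair were at least 90% identical in 241 of the 676 clusters that could be compared (35.7%). This share was 83.3% of 42 clusters of chemosensory receptors, 43.3% of 150 clusters of named families, and 15.4% of 78 clusters of genes with unlike names.

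For most of these genes the shared cluster was the only measurement on the array. Of 2685 RefSeq genes on clusters of several genes, 2181 (81.2%) had no cluster of their own. Foxp3, Nrp1, Gata3, Cd74 and Rnf19a were among the genes without one. Conversely, 155 gene sets stood on 2 or more clusters, 443 clusters in all, and within a set the level ranged over a median of 0.19 log2 units and the difference between the groups over a median of 0.05. Some repeats were the same measurement: 203 shared clusters had exactly the values of another shared cluster on all 6 arrays, so that the 2168 clusters held 2035 different rows of values. The largest such groups were 19 and 11 clusters that list Gm26504 and Ipw, a long RNA of the imprinted Prader-Willi region, and 10 Y-chromosomal clusters of predicted genes. None of the clusters past the thresholds had such a twin.

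Shared clusters were somewhat brighter than others. The values were log2 levels from RMA, which subtracts background, brings the arrays to a common distribution and joins the probes of a cluster. The median level of the shared clusters was 5.03, against 4.79 for clusters with 1 symbol, 4.32 for those without a symbol and 4.52 for all. The level followed the make-up of the cluster. Clusters with genes on more than 1 chromosome, often a protein-coding gene with its processed pseudogenes, had a median of 11 log2 units, and 94.8% of them were above the median cluster. The 58 clusters of ribosomal proteins were at a median of 14.58, and the 4 mitochondrial clusters at 19.56. Chemosensory receptors, not known to be used in T cells, were at 4.17, and the 134 Y-chromosomal clusters at 4.14. On at least 1 array 50 shared clusters exceeded 16 log2 units, the most a 16-bit scanner can read, so the scale of these values was set by processing.

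**Figure D1:**
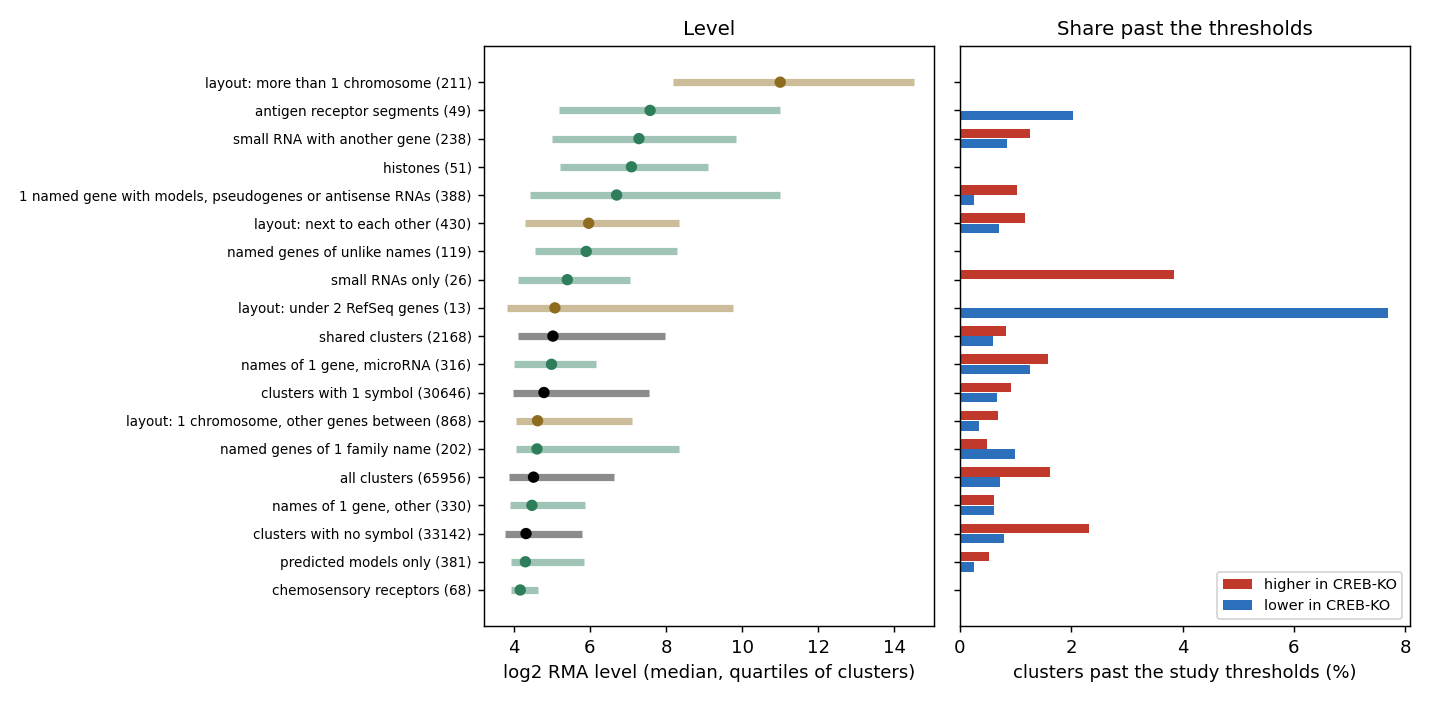
Left, log2 RMA level of shared clusters by symbol class (green) and by layout of their genes (brown), beside all clusters, those with 1 symbol, those with none and all shared clusters (black). Points are medians, bars quartiles of the cluster means over 6 arrays, and numbers in brackets count clusters. Right, the percentage of each group past the study thresholds, with 0.83% of all shared clusters higher and 0.6% lower.

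Both arrays numbered 1 stood apart from the other 4. On the first principal component over all clusters, which held 29.6% of the variance, they scored 50.6 (CREB-KO) and 69.4 (CREB-WT), and the others -63.9 to -1.59. Array medians lay between 4.48 and 4.58, with the 3 CREB-KO arrays at 4.55 to 4.58 and the 3 CREB-WT arrays at 4.48 to 4.53. Creb1, on a cluster of its own, was read at 14.43 in CREB-KO and 13.53 in CREB-WT, higher in the knockout by 0.90 (SE 0.25). Every CREB-KO array was above every CREB-WT array, and the Creb1 cluster passed the study's thresholds (unadjusted limma p 0.0101, adjusted p 0.814). Since the exons covered by its probes are not given in the sources used here, this cluster does not check the labels. The T cell marker Cd3e was at 17.15 and 17.16, Cd4 at 13.68 and 13.72, and Il2ra (CD25) at 14.66 and 15.11 in CREB-KO and CREB-WT.

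The comparison asked which shared clusters differed in Tregs without CREB. With the study's thresholds of 1.5-fold and an unadjusted p of 0.05, here from limma over all 65956 clusters, 18 shared clusters were higher and 13 lower in CREB-KO. These were 0.83% and 0.6% of the shared clusters, against 1.62% and 0.728% of all clusters, 0.914% and 0.669% of clusters with 1 symbol, and 2.32% and 0.791% of clusters without a symbol. The share called was thus close to that of clusters with 1 symbol and gives no result about shared clusters as such. With each array's median subtracted first, the count turned from mostly higher to mostly lower, with 10 higher and 19 lower. The groups did not overlap in 149 shared clusters with all CREB-KO arrays above (6.87%, against 7.87% of all clusters) and in 75 with all below (3.46%, against 3.29%). After Benjamini-Hochberg adjustment over all clusters none of the 2168 passed 0.05, as none of all clusters did (0.0%), and the smallest adjusted p was 0.511. At an unadjusted p below 0.05 there were 87 (4.01%), against 5.59% of all clusters. The 31 clusters named below are therefore candidates at an unadjusted threshold, with adjusted p-values up to 0.894, and 23 of them lost the call when 1 of the 6 arrays was left out. Without both arrays numbered 1, which leaves 2 against 2, 32 shared clusters were higher and 17 lower, and 16 of the 31 kept the call. Those that kept it in every alternative fit were Cd74/Mir5107, Foxp3/Ppp1r3fos/4930524L23Rik, Rnf19a/Mir8097, Gm14327/Zfp971, Scarna13/Mir3069 and Mir6908, of which only Cd74/Mir5107 and Rnf19a/Mir8097 also passed a fold limit of 2.

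**Figure D2:**
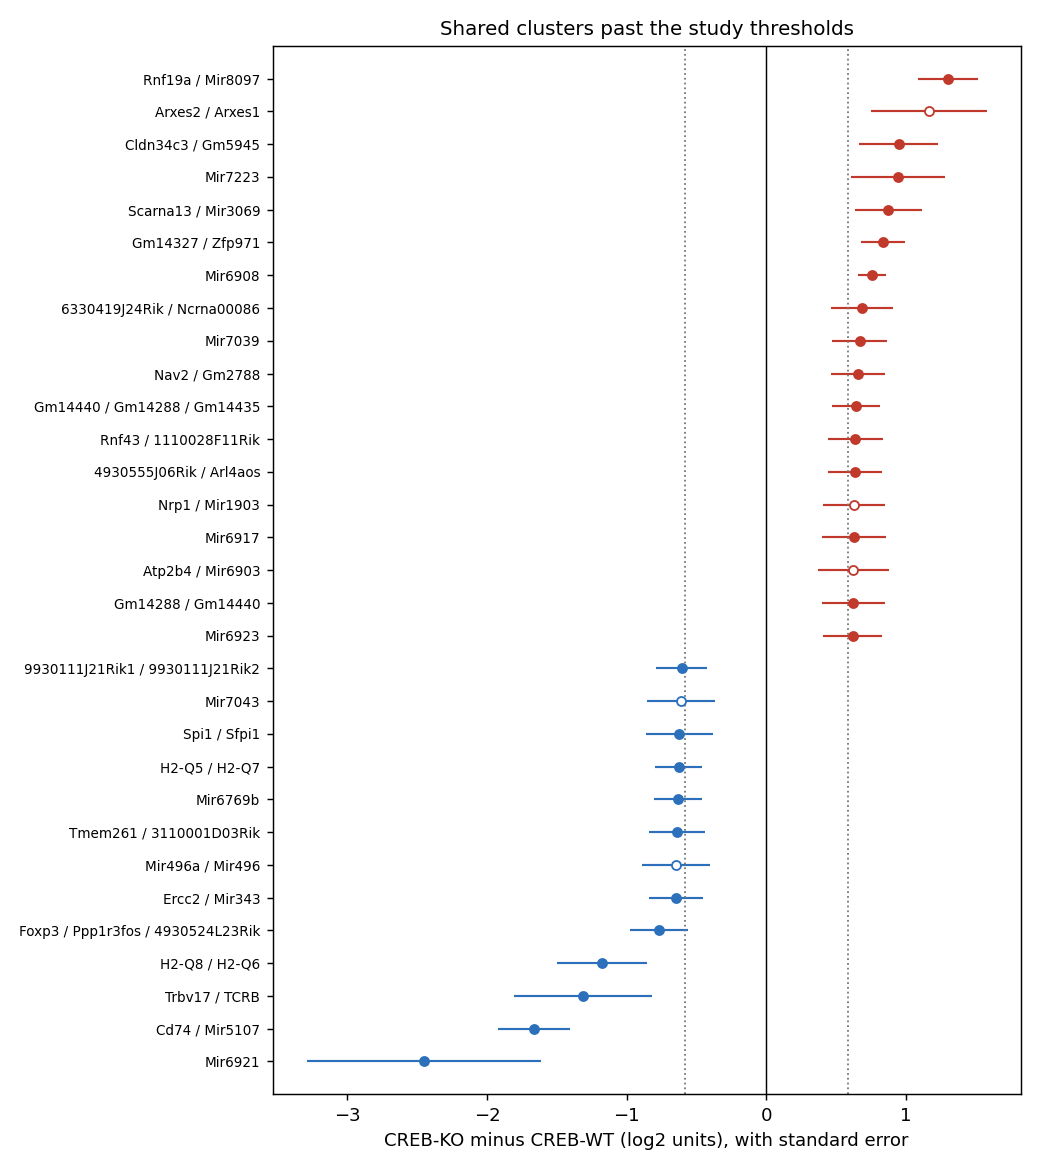
Difference between CREB-KO and CREB-WT in log2 units (points) with its standard error (bars) for the 31 shared clusters past the study thresholds, red higher and blue lower in CREB-KO. Open points mark the 5 clusters whose groups overlap, and dotted lines the 1.5-fold limits. The differences run from -2.45 for Mir6921 to 1.30 for Rnf19a/Mir8097.

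The cluster of Foxp3 was lower in CREB-KO. It lists Foxp3 with Ppp1r3fos and 4930524L23Rik, both of which RefSeq holds as older names of Flicr, a long non-coding RNA whose RefSeq span overlaps that of Foxp3. Its level was 12.07, 12.55 and 11.94 in CREB-KO against 12.83, 12.80 and 13.23 in CREB-WT. Every CREB-KO array was below every CREB-WT array. The difference was -0.77 (SE 0.21), a 1.70-fold lower level, with an unadjusted limma p of 0.00929 and an adjusted p of 0.814. On leaving out 1 array at a time it lay between -0.95 and -0.63 and stayed past the thresholds. The Cre allele of the CREB-KO mice is inserted in the Foxp3 gene itself, and its part in this difference cannot be told apart from that of CREB. The cluster does not separate the Foxp3 message from Flicr.

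Nrp1/Mir1903 was higher. Nrp1, neuropilin-1, is the surface receptor by which the cells were sorted, and the part of this gate in the RNA level was not tested. The cluster was 12.03, 12.56 and 12.72 in CREB-KO and 11.71, 11.64 and 12.08 in CREB-WT, and the lowest CREB-KO array was below the highest CREB-WT array. The difference of 0.63 (SE 0.22) fell under the threshold without CREB-KO replicate 2 (0.57) or 3 (0.48), without CREB-WT replicate 1 (0.58) or 2 (0.54), and with the array medians subtracted (0.56). Gata3/9230102O04Rik, which joins a transcription factor of type 2 helper T cells with an uncharacterised RNA, was at 9.53, 10.28 and 9.94 against 9.44, 9.73 and 9.78. The groups overlapped, and the difference of 0.27 (SE 0.22) did not pass.

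**Figure D3:**
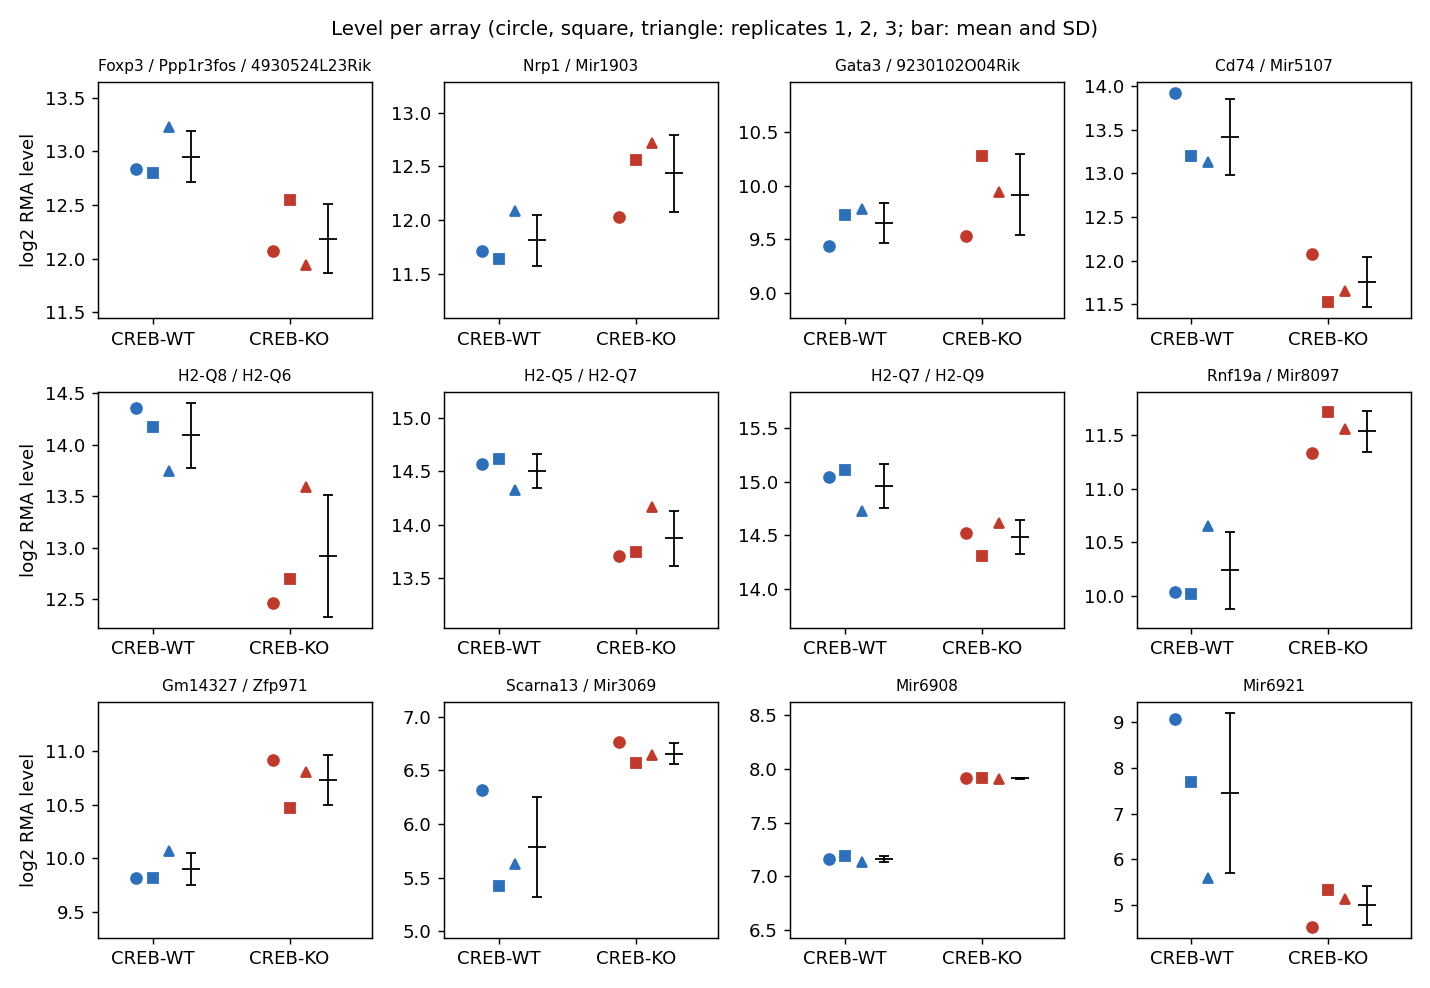
Log2 RMA level of 12 shared clusters on each array, CREB-WT in blue and CREB-KO in red, with circles, squares and triangles for replicates 1, 2 and 3 and black bars for mean and SD. Each panel has its own vertical range of at least 2.2 log2 units. The 3 H2-Q clusters, Foxp3, Cd74 and Mir6921 are lower on every CREB-KO array, Rnf19a/Mir8097, Gm14327/Zfp971, Scarna13/Mir3069 and Mir6908 are higher on every one, and Nrp1 and Gata3 overlap.

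Cd74 and MHC class I genes of the Q region were on 3 of the 13 lower clusters. Cd74/Mir5107 holds the invariant chain, which guides MHC class II molecules to the compartment where they are loaded, and a microRNA. It was 12.08, 11.53 and 11.65 in CREB-KO against 13.92, 13.20 and 13.13 in CREB-WT. The groups were more than 1 log2 unit apart, and the difference was -1.66 (SE 0.26; unadjusted limma p 0.000547, adjusted p 0.511), a 3.17-fold lower level. Leaving out any 1 array gave -1.82 to -1.41.

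The 3 clusters that list only Q-region class I genes had every CREB-KO array below every CREB-WT array. Gm10499/H2-Q5, which joins H2-Q5 with a predicted gene, did not. It was dimmer, at 6.25, 6.43 and 6.40 against 6.41, 6.46 and 6.40, and its difference was -0.06 (SE 0.11). H2-Q8/H2-Q6 was 12.47, 12.70 and 13.59 against 14.36, 14.17 and 13.75, a difference of -1.17 (SE 0.32) that was -0.82 and no longer called without both arrays numbered 1. H2-Q5/H2-Q7 was 13.71, 13.75 and 14.17 against 14.56, 14.62 and 14.33, a difference of -0.63 (SE 0.17) that fell under the threshold without CREB-KO replicate 1 (-0.55) or 2 (-0.56) or CREB-WT replicate 2 (-0.57). H2-Q7/H2-Q9 was 14.52, 14.31 and 14.62 against 15.04, 15.11 and 14.72, and its difference of -0.47 (SE 0.16) did not reach 1.5-fold, except without CREB-WT replicate 3 (-0.59). The last 2 both list H2-Q7, and the 3 clusters hold genes of 1 closely related family, so they are not counted as separate results. Of the 9 shared clusters of a list of MHC genes, 2 were lower, 0 higher and 7 did not pass, with a median difference of -0.12 against 0.05 over all clusters. The 2 are the called Q-region clusters above, and of all clusters 0.728% were lower and 1.62% higher. The 9 include Pfdn6/H2-Ke2, at -0.12 (SE 0.15), both names of Pfdn6 in RefSeq and not of an MHC gene. H2-T23/H2-T-ps, at -0.12 (SE 0.11), and H2-T22/H2-T9, at 0.20 (SE 0.19), were among the 7 clusters that did not pass. The classical class I genes H2-K1 (-0.02, SE 0.11) and H2-D1 (0.05, SE 0.14), on clusters of their own, differed by less than their standard error, both above 16 log2 units.

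Class II genes and markers of other cell types were set beside Cd74. H2-Aa, H2-Ab1 and H2-Eb1, subunits of the class II molecules, were read at 6.27, 9.08 and 7.62 in CREB-KO and 7.33, 10.18 and 8.70 in CREB-WT, lower by 1.05 to 1.10, and H2-Aa alone passed the thresholds. The mean of the 19 clusters of a B cell marker list, relative to its average over the arrays, was -0.12, -0.14 and 0.06 in CREB-KO against 0.12, 0.15 and -0.08 in CREB-WT. Of its defining genes, Cd79a was at 6.46 against 6.97 and Ms4a1 at 4.89 against 5.43. The 6 shared clusters of the list, all with immunoglobulin genes, had 5 differences above 0 and 1 below, with a median of 0.12 and no call. A dendritic cell list includes the clusters of Cd74, H2-Aa and H2-Ab1 themselves, so it is not separate from the values above. Its 14 clusters were at 0.01, -0.36 and -0.17 against 0.45, 0.11 and -0.03, with Itgax (CD11c) at 5.28 against 5.87. The 17 of a macrophage and monocyte list were at 0.60, -0.60 and -1.50 against 1.11, 0.62 and -0.23, with Csf1r at 7.54 against 9.39. These lists were lowest on CREB-KO arrays for dendritic cells and macrophages and overlapped between the groups. In a sorted bulk sample, fewer cells of a type and less RNA per cell cannot be told apart, and the part of other cells in the lower Cd74 and H2-Q clusters was not tested.

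Spi1/Sfpi1 are both names of the gene for PU.1, a transcription factor of myeloid and B cells. It was low on all arrays, at 4.74, 4.58 and 4.38 in CREB-KO against 5.64, 5.16 and 4.77 in CREB-WT. The difference of -0.62 (SE 0.24) lost its call without CREB-KO replicate 2 (-0.63) or 3 (-0.53) or CREB-WT replicate 1 (-0.40) or 2 (-0.64). Its highest array, CREB-WT replicate 1, was also the highest for the macrophage list and for the erythroid and platelet list. The haemoglobin clusters of the latter had large differences with wide errors, and Hbb-bt/Hbb-b2/Hbb-bs/Hbb-b1 was 12.51, 11.72 and 6.94 against 14.48, 12.02 and 9.81, a difference of -1.71 (SE 1.75). Without CREB-KO replicate 3 it was 0.013. Hba-a2/Hba-a1 had -0.94 (SE 1.92) and 0.97 without that array. The haemoglobin clusters differed more between animals of 1 group than between the groups.

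Among the other lower clusters, Tmem261/3110001D03Rik, both names of Dmac1, a mitochondrial protein of complex I assembly, had -0.64 (SE 0.20). Its CREB-KO arrays read 9.08, 9.63 and 9.75 and the CREB-WT arrays 10.26, 10.06 and 10.06, and the call was lost without either CREB-KO replicate 1 (-0.44) or CREB-WT replicate 1 (-0.57). A pair of predicted genes of 1 family, 9930111J21Rik1/9930111J21Rik2, were at 10.92, 10.78 and 11.40 against 11.57, 11.73 and 11.63, a difference of -0.61 (SE 0.18). The cluster of 9930111J21Rik2 alone was lower by nearly the same amount, -0.60 (SE 0.16). The shared call was lost without CREB-KO replicate 1 (-0.55) or 2 (-0.48) or CREB-WT replicate 2 (-0.56). Trbv17/TCRB, a variable segment of the T cell receptor beta chain, had -1.31 (SE 0.50), with the 3 CREB-KO arrays at 9.45, 9.54 and 9.13 and the CREB-WT arrays spread over 9.66, 11.73 and 10.67. It was -0.79 and not called without CREB-WT replicate 2, and leaving out any other array but CREB-WT replicate 1 also ended the call, at -1.40 to -1.19.

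Among the called clusters the largest rise was in Rnf19a/Mir8097. Rnf19a encodes a RING finger ubiquitin ligase, and the cluster is the only one for it. It was 11.33, 11.71 and 11.56 in CREB-KO and 10.03, 10.02 and 10.65 in CREB-WT, with no overlap. The difference was 1.30 (SE 0.21; unadjusted limma p 0.000713, adjusted p 0.552), a 2.46-fold higher level, and 1.19 to 1.51 on leaving out 1 array.

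Among the higher clusters 3 were of chromosome 2, with the zinc finger gene Zfp971 or predicted genes. Gm14327/Zfp971 was 10.92, 10.47 and 10.81 against 9.81, 9.82 and 10.07, a difference of 0.83 (SE 0.16). The cluster of Zfp971 alone was higher by 0.62 (SE 0.18). Gm14440/Gm14288/Gm14435 was 10.05, 9.80 and 9.99 against 8.99, 9.52 and 9.41, a difference of 0.64 (SE 0.17) that was 0.48 and not called without CREB-WT replicate 1. Gm14288/Gm14440, named after its values were seen, had 0.62 (SE 0.23) and was not called without CREB-KO replicate 1 (0.45) or 3 (0.63) or CREB-WT replicate 1 (0.46) or 3 (0.66). Another cluster with the same pair of symbols had 0.54 and did not pass. With array medians subtracted, both called clusters with Gm14288 were under the threshold, at 0.58 and 0.56. These genes and some others of the same chromosome, a set picked after the values were seen, stood on 11 shared clusters, with differences of 0.15 to 0.83, of which 3 passed the thresholds. Several of them list the same genes, so these are not 11 separate results. Over the 41 shared clusters of a list of zinc finger proteins, 2 were higher, 0 lower and 39 did not pass, with a median difference of 0.15. Of all clusters 1.62% were higher and 0.728% lower, with a median difference of 0.05. The 2 higher clusters and several others of the list belong to the picked chromosome 2 set, so the list is not separate from it.

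Several other clusters were higher, some of gene copies and some of 1 named gene with a small RNA, a predicted model or an older name. Arxes2/Arxes1, whose identical promoters are shown above, was 8.60, 8.08 and 8.39 against 6.47, 7.02 and 8.10, a difference of 1.16 (SE 0.41). This cluster was named after its values were seen, the groups overlapped by 1 array, and the difference was 0.80 and not called without CREB-WT replicate 1. It was also not called without CREB-WT replicate 2 (1.07) or CREB-KO replicate 1 (1.04) or 3 (1.15). Cldn34c3/Gm5945, a claudin family gene and a predicted gene on the X chromosome, was 6.02, 5.24 and 6.34 against 4.92, 5.02 and 4.82, a difference of 0.95 (SE 0.28), and the cluster of Gm5945 alone had 1.28 (SE 0.30). Without both arrays numbered 1 the first was 0.87 and not called. Nav2/Gm2788, with the gene of a neuron navigator protein, had 0.66 (SE 0.19) and 0.48, not called, without CREB-KO replicate 3. Rnf43/1110028F11Rik, with the gene of a ubiquitin ligase that restrains Wnt receptors, had 0.64 (SE 0.20), and lost the call without either CREB-KO replicate 3 (0.51) or CREB-WT replicate 3 (0.48). Atp2b4/Mir6903, with the gene of a calcium pump of the plasma membrane, had 0.62 (SE 0.25), with overlapping groups and no call without CREB-KO replicate 2 (0.70) or 3 (0.40) or CREB-WT replicate 1 (0.56) or 2 (0.51). The cluster 6330419J24Rik/Ncrna00086, both names of the RefSeq gene Smim10l2a for a small membrane protein, and 4930555J06Rik/Arl4aos, names of a long non-coding RNA, had 0.69 (SE 0.22) and 0.64 (SE 0.19). The first was not called without either CREB-KO replicate 2 (0.54) or CREB-WT replicate 1 (0.62), nor without CREB-KO replicate 3 (0.59). The second, a dim cluster at 4.38, 3.90 and 3.73 against 3.30, 3.51 and 3.30, was not called without CREB-KO replicate 1 (0.44).

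MicroRNAs were on 15 of the 31 clusters, 9 of them higher and 6 lower, and 9 of the 15 list no other gene. Of the 316 clusters whose symbols all name 1 microRNA, 1.58% were higher and 1.27% lower. The shares were 1.62% and 0.728% of all clusters and 0.83% and 0.6% of shared clusters. An excess of microRNAs among the calls was not tested. Of the 581 shared clusters with small RNAs 566 did not pass, and their median difference was 0.01. Mir6908 was the steadiest of all the shared clusters that passed, at 7.92, 7.92 and 7.91 in CREB-KO against 7.16, 7.19 and 7.13 in CREB-WT. The difference was 0.75 (SE 0.10; unadjusted limma p 0.000222, adjusted p 0.511), and 0.74 to 0.77 without 1 array. Scarna13/Mir3069, which joins a guide RNA of Cajal bodies with a microRNA, was 6.76, 6.57 and 6.64 against 6.32, 5.42 and 5.62, a difference of 0.87 (SE 0.24).

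The largest difference of any called shared cluster had the widest error. Mir6921 was 4.52, 5.34 and 5.13 in CREB-KO and 9.07, 7.69 and 5.58 in CREB-WT, a difference of -2.45 (SE 0.84) set mostly by CREB-WT replicates 1 and 2. It was not called without CREB-KO replicate 1 (-2.21) or 3 (-2.52) or CREB-WT replicate 2 (-2.33), and it was -1.64 without CREB-WT replicate 1. Mir7223 was 8.61, 9.88 and 8.77 against 8.20, 8.22 and 8.01, a difference of 0.94 (SE 0.34) that was 0.54 and not called without CREB-KO replicate 2. It also lost the call without CREB-WT replicate 1 (0.97), 2 (0.98) or 3 (0.88). The remaining microRNA clusters had differences of 0.61 to 0.67 in size, and each lost its call without at least 1 array. Mir7039 was 0.67 and higher, and not called without either CREB-KO replicate 2 (0.58) or CREB-WT replicate 3 (0.54). Mir6769b was -0.63 and lower, and not called without either CREB-KO replicate 2 (-0.54) or CREB-WT replicate 1 (-0.53). Mir6917 (0.62), Mir6923 (0.62), Mir496a/Mir496 (-0.64) and Mir7043 (-0.61) were each lost without 3 to 5 of the arrays.

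A microRNA hairpin inside a gene can be compared with the cluster of that gene. In 10 of the called clusters the hairpin lay in a RefSeq gene with another cluster on the array, and 0 of these 10 passed the thresholds, with differences from -0.31 to 0.38. Of all clusters only 1.62% were called higher and 0.728% lower, and the microRNA clusters were picked because they were called. The count of 0 among 10 therefore does not show that microRNA and gene behaved differently. Ercc2/Mir343 holds the microRNA hairpin together with Ercc2, a DNA helicase of transcription and nucleotide excision repair. It was 6.42, 6.54 and 6.19 in CREB-KO against 6.89, 7.39 and 6.82 in CREB-WT, a difference of -0.65 (SE 0.19), not called without either CREB-KO replicate 3 (-0.55) or CREB-WT replicate 2 (-0.47). The cluster of Ercc2 alone was 5.36 in both groups (SE of the difference 0.12). The Mir6921 hairpin is in Srebf1, a regulator of sterol and fatty acid synthesis, whose cluster with Mir6922 differed by -0.10 (SE 0.14). The Mir6908 hairpin is in Pdxk, pyridoxal kinase, at 0.38 (SE 0.18), and the Mir7039 hairpin in Smurf1, a ubiquitin ligase, at -0.11 (SE 0.17). The Mir3069 hairpin lies in Snhg10, a small nucleolar RNA host gene, at -0.03 (SE 0.15). The differences between a microRNA cluster and the cluster around it were not tested.

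**Figure D4:**
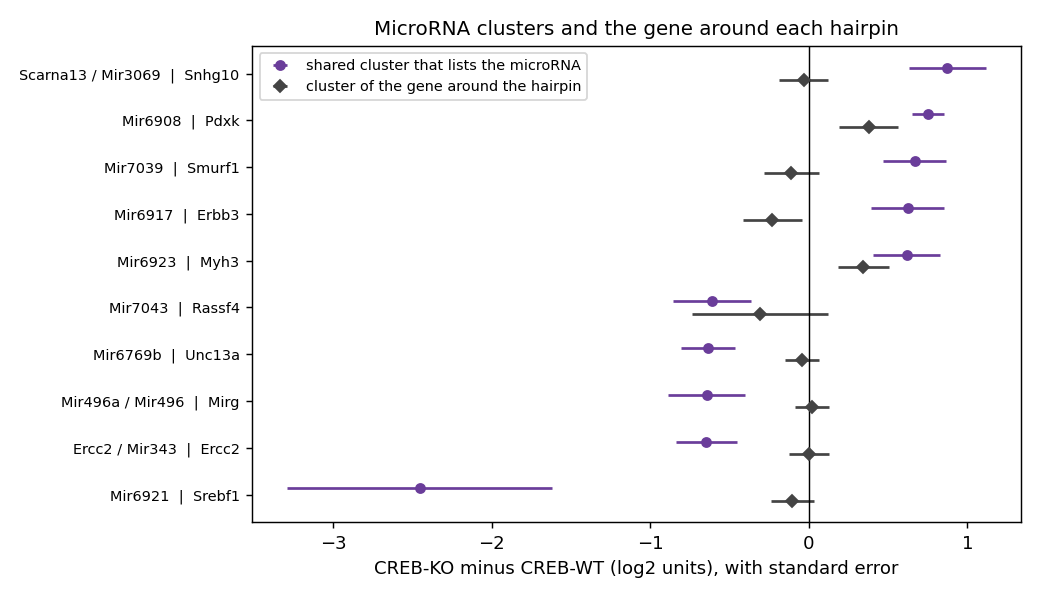
Difference between CREB-KO and CREB-WT in log2 units with its standard error for 10 called clusters that list a microRNA (purple circles) and for the cluster of the gene around each hairpin (grey diamonds). The clusters around the hairpins lie between -0.31 and 0.38.

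Histones, ribosomal proteins and antigen receptor segments are multigene families with many shared clusters, and these held 1 call in all. They are counted here by gene lists, which differ slightly from the symbol classes above. Of all clusters 1.62% were called higher and 0.728% lower, and with so few clusters the count gives no result about these families. None of the 52 histone clusters passed, 37 were below 0, and the median difference was -0.17. Of these, 11 list the same 13 histone H4 genes, and yet their levels ran from 4.81 to 13.57 and their differences from -0.73 to 0.17. Clusters of H2b genes were set by single arrays: H2bc11/H2bc15/H2bc13/H2bc7 was 7.19, 7.54 and 7.27 against 7.82, 7.29 and 8.79, a difference of -0.63 (SE 0.37) with CREB-WT replicate 3 the highest. H2bc8/H2bc6/H2bc4 went the other way, at 0.81 (SE 0.47), with 12.58 on CREB-KO replicate 2. The 58 ribosomal protein clusters held 0 calls, with 45 above 0 and a median difference of 0.05, the same as that of all clusters. Rps2/Rps2-ps13 had the highest of those named, 0.54 (SE 0.30), with overlapping groups.

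Of the 51 clusters of antigen receptor segments 1 was lower, Trbv17/TCRB. In the symbol class of these segments, which holds 49 clusters, the arrays of 1 group differed more than elsewhere, with a median residual SD of 0.51 against 0.22 for all clusters. Trav4d-4/Trav4-4-dv10, variable segments of the alpha chain, was 13.81, 12.98 and 12.80 against 12.55, 12.10 and 12.89, a difference of 0.69 (SE 0.32) that did not pass. Immunoglobulin segments were high on single arrays. A cluster of kappa light-chain segments, listed with Igk, was 12.95 on CREB-WT replicate 1 and 6.45 to 8.04 on the other arrays, so that its difference of -1.52 (SE 1.71) was 0.58 without that array.

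Few genes of the CREB family and of cAMP signalling were on shared clusters. The 4 clusters of a list of CREB/ATF and AP-1 factors held 0 calls, among them Junb/Prdx2 (0.24, SE 0.21), Npff/Atf7 (-0.23, SE 0.17) and Creb5/9430076C15Rik (0.11, SE 0.11). Pde4d/Mir1904, with a phosphodiesterase that breaks down cAMP, was 5.75, 5.94 and 5.68 against 5.36, 5.38 and 5.51. All 3 CREB-KO arrays were above the CREB-WT arrays, but the difference of 0.37 (SE 0.12) was under 1.5-fold. Other clusters had an unadjusted p below 0.05 but stayed under the fold limit of 0.58 log2 units. Gemin6/Gemin6-ps, with a protein of the complex that assembles spliceosomal particles, had -0.56 (SE 0.13). Foxm1/Tex52, with a transcription factor of dividing cells, and Borcs8/Mef2b both had -0.54 (SE 0.15 and 0.17). Nbeal2/Mir8107 had -0.50 (SE 0.11) and Tmsb15b2/Tmsb15b1/Tmsb15l -0.45 (SE 0.13). On the upper side, Mir7224 and Mir465b-1/Mir465b-2 had 0.56 (SE 0.13 and 0.20), Utp14b/Acsl3 0.49 (SE 0.15) and Ifi27/Ifi27l1, an interferon-induced gene, 0.49 (SE 0.20). In each of these 9 clusters the groups did not overlap. This was also so in 15 of the 18 higher and 11 of the 13 lower called clusters, so it is no support apart from the p.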

How the data were processed

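Per the labels and the study's methods, RNA of each animal's sorted Tregs was amplified, labelled and hybridised to 1 Affymetrix mouse transcriptome array. The authors deposited log2 RMA values (RMA is named in the submitters' processing notes) for 65956 transcript clusters on 6 arrays. The genome build and probe positions of the array are not given in the sources used here. Gene symbols came from the platform annotation and were matched to RefSeq (GRCm38.p6), which also gave the sequences. Promoters were aligned with Biopython 1.88.

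The deposited values were used without further scaling. CREB-KO and CREB-WT were compared with limma 3.58.1 (lmFit and eBayes, R 4.3.3, two-sided), with Benjamini-Hochberg adjustment over all 65956 clusters. Calls used the study's limits, 1.5-fold and unadjusted p below 0.05. The fit was tested on simulated data. With 3 arrays a group, the smallest p of an exact permutation test is 0.1. Spreads are SD or limma's SE with 3 arrays per group, and this number limits the precision.

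Shared clusters and gene lists were chosen with earlier results of these data known. Named were clusters with a gene that the study discusses, the 12 called clusters farthest from 0 on each side among those above the median level with no overlap of the groups, up to 3 per list or class by p and every called cluster of a list, and the clusters with the most symbols and the highest level. Gm14288/Gm14440, Arxes2/Arxes1, Gm10499/H2-Q5, the immunoglobulin, H2b and H2-T clusters were named after their values were seen. Alternatives were a replicate block, leaving out each array, 2 further normalizations, a filter on dim clusters, another prior, array weights, the methods' t-test and a fold limit of 2.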

Additional observations from a re-analysis of the deposited data

How the results depend on the processing

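Which shared clusters were called depended on single arrays, although in no alternative did any shared cluster pass an adjusted p of 0.05. Against 18 higher and 13 lower clusters, leaving out 1 array at a time gave 12 to 34 higher and 13 to 28 lower, and 17 to 23 of the 31 kept the call. Without both arrays numbered 1, an alternative chosen after seeing the data, 32 were higher, 17 lower and 16 kept. Subtracting array medians gave 10 higher and 19 lower and moved the median difference of all clusters from 0.05 to -0.01, quantile normalization 15 and 18. The methods' t-test gave 10 and 8, with 18 kept, 106 shared clusters at p below 0.05 and none after Benjamini-Hochberg adjustment. A fold limit of 2 left 2 higher and 4 lower. With the replicate number as a block there were 24 higher and 22 lower, and 29 kept. The deviations of same-numbered arrays correlated at 0.22, 0.02 and 0.04, and number 2 did not correlate best with its own number, so the numbers were not taken to pair the animals. Leaving out dim clusters, a mean-dependent robust prior and array weights gave 16 to 21 higher and 11 to 13 lower. None of the 31 called clusters changed direction in any alternative. The uncalled ones that did were 3. Hbb-bt/Hbb-b2/Hbb-bs/Hbb-b1 ran from -2.86 to 0.013 and Hba-a2/Hba-a1 from -2.38 to 0.97 on leaving out 1 array, the latter also turning to 0.30 without CREB-WT replicate 1, and the kappa light-chain cluster listed with Igk ran from -2.67 to 0.58 and was 0.17 without both arrays numbered 1. The causes of these changes were not tested.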
